A study of Mus musculus with 677 samples.

Results

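Cells that the authors labelled Stem are the subject here: 96 of the 677 single epithelial cells of the series, taken as every column whose name ends in exactly that label. They came from the intestine of C57BL/6 mice and were set against cells of the 8 other labels, foremost TA (94 cells in run 1 and 81 in run 2), the transit-amplifying progenitors that stem cells give rise to. The groups were Atg16l2-/- mice (KO), which lack a homologue of the autophagy gene Atg16l1, and WT mice of the same strain. KO M1 gave 29 Stem cells, KO M2 18, WT M1 20 and WT M2 29, sequenced in 2 runs (40 Stem cells in run 1 and 56 in run 2). The codes M1 and M2 were read as animals, which the labels do not spell out, and how Atg16l2 was disrupted, the age of the mice and how the authors assigned the cell types are not given in the sources used here.

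Stem cells of the small intestinal crypt sit at the crypt base between Paneth cells and renew the whole epithelium. Wnt ligands and R-spondins keep them as stem cells, Notch signals from neighbouring cells hold back secretory fate, and bone morphogenetic protein (BMP) signals promote differentiation toward the villus. Lgr5, a receptor for R-spondins, is their best known marker, and their daughters, the TA cells, divide rapidly before they differentiate.

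The deposited values are TPM, a relative abundance of transcripts corrected for their length and scaled to the same total in every cell, so sequencing depth is unknown. Stem cells had a median of 5688 genes above 0 TPM (3802 to 7767), against 6429 in TA cells, and 5997.5 in run 1 Stem cells against 5253 in run 2 Stem cells. The precursor ribosomal RNA entry Rn45s took a median of 18.6 to 21.2% of the TPM of run 2 Stem cells in the 4 animals. In run 1 it took 5.42% in KO M1, 27.3% in the 4 Stem cells of KO M2, 7.78% in WT M1 and 5.65% in WT M2. The run 1 cells of KO M2 thus stood apart from the other run 1 cells, and results that rest on them are given with and without them. Levels below are means over the cells of an animal, differences are on the log2(TPM + 1) scale, which understates changes of low genes, and each ± is an SD. Because fewer cells with a transcript and less transcript per cell cannot be told apart in such means, shares of cells are given beside them for the markers.

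The 6 stem markers matched the label. Lgr5 stood at 117.6 and 138.3 TPM in KO and at 136.2 and 116.8 TPM in WT Stem cells, against 40.6 and 40.7 TPM in KO and 34.1 and 35.9 TPM in WT TA cells. Every Stem mean of Lgr5 was above every TA mean, and the difference averaged 1.72 ± 0.19 over the 4 animals. Lgr5 was above 0 TPM in 95.8% of Stem cells, 62.3% of TA cells and 27.6% of Enterocyte cells, the mature absorptive type, which had a median of 5850.5 genes above 0 TPM and a mean Lgr5 level of 0.981 TPM. Olfm4, a secreted glycoprotein of the crypt base, was the most abundant of the 6, with 15170 and 13021 TPM in KO and 17488 and 18395 TPM in WT Stem cells. In TA cells it had 9353 and 8470 TPM in KO and 7450 and 7337 TPM in WT. Olfm4 was therefore also abundant in TA cells, and it was detected in 100% of Stem cells, 98.9% of TA cells and 8.62% of Enterocyte cells. Gkn3, a gastrokine, gave the widest separation from TA cells among the 6 (2.09 ± 0.76): 310.1 and 248.9 TPM in KO and 317.4 and 358.5 TPM in WT Stem cells, against 37.9 and 80.8 TPM in KO and 124.4 and 66.4 TPM in WT TA cells. It was detected in 77.1% of Stem cells, 41.1% of TA cells and 1.72% of Enterocyte cells.

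The other markers separated Stem from TA cells less widely, and Ascl2 overlapped. Smoc2, a matricellular calcium-binding protein, averaged 453 ± 45.7 TPM in Stem cells and 290.9 ± 30.7 TPM in TA cells (n = 4 animals each), and Axin2, a feedback inhibitor and target of Wnt signalling, 48.8 ± 8.02 TPM in Stem and 26.2 ± 6.17 TPM in TA cells. Ascl2, a Wnt-induced transcription factor of stem cells, had 166.1 and 153.8 TPM in KO and 92.2 and 196.3 TPM in WT Stem cells. Its TA values were 124.97 and 80.8 TPM in KO and 107.6 and 89.1 TPM in WT, so WT M1 was the one animal with less Ascl2 in Stem cells than in TA cells. Smoc2 was above 0 TPM in 100% of Stem, 98.3% of TA and 32.8% of Enterocyte cells, Axin2 in 91.7%, 81.7% and 22.4%, and Ascl2 in 83.3%, 73.1% and 3.45%. Over all 9 labels, 5 of the 6 markers were highest in Stem cells. Lgr5 was highest in Tuft cells, the chemosensory type, at 146.9 TPM over 7 cells, of which 5 had any and 1 reached 623 TPM.

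**Figure D1:**
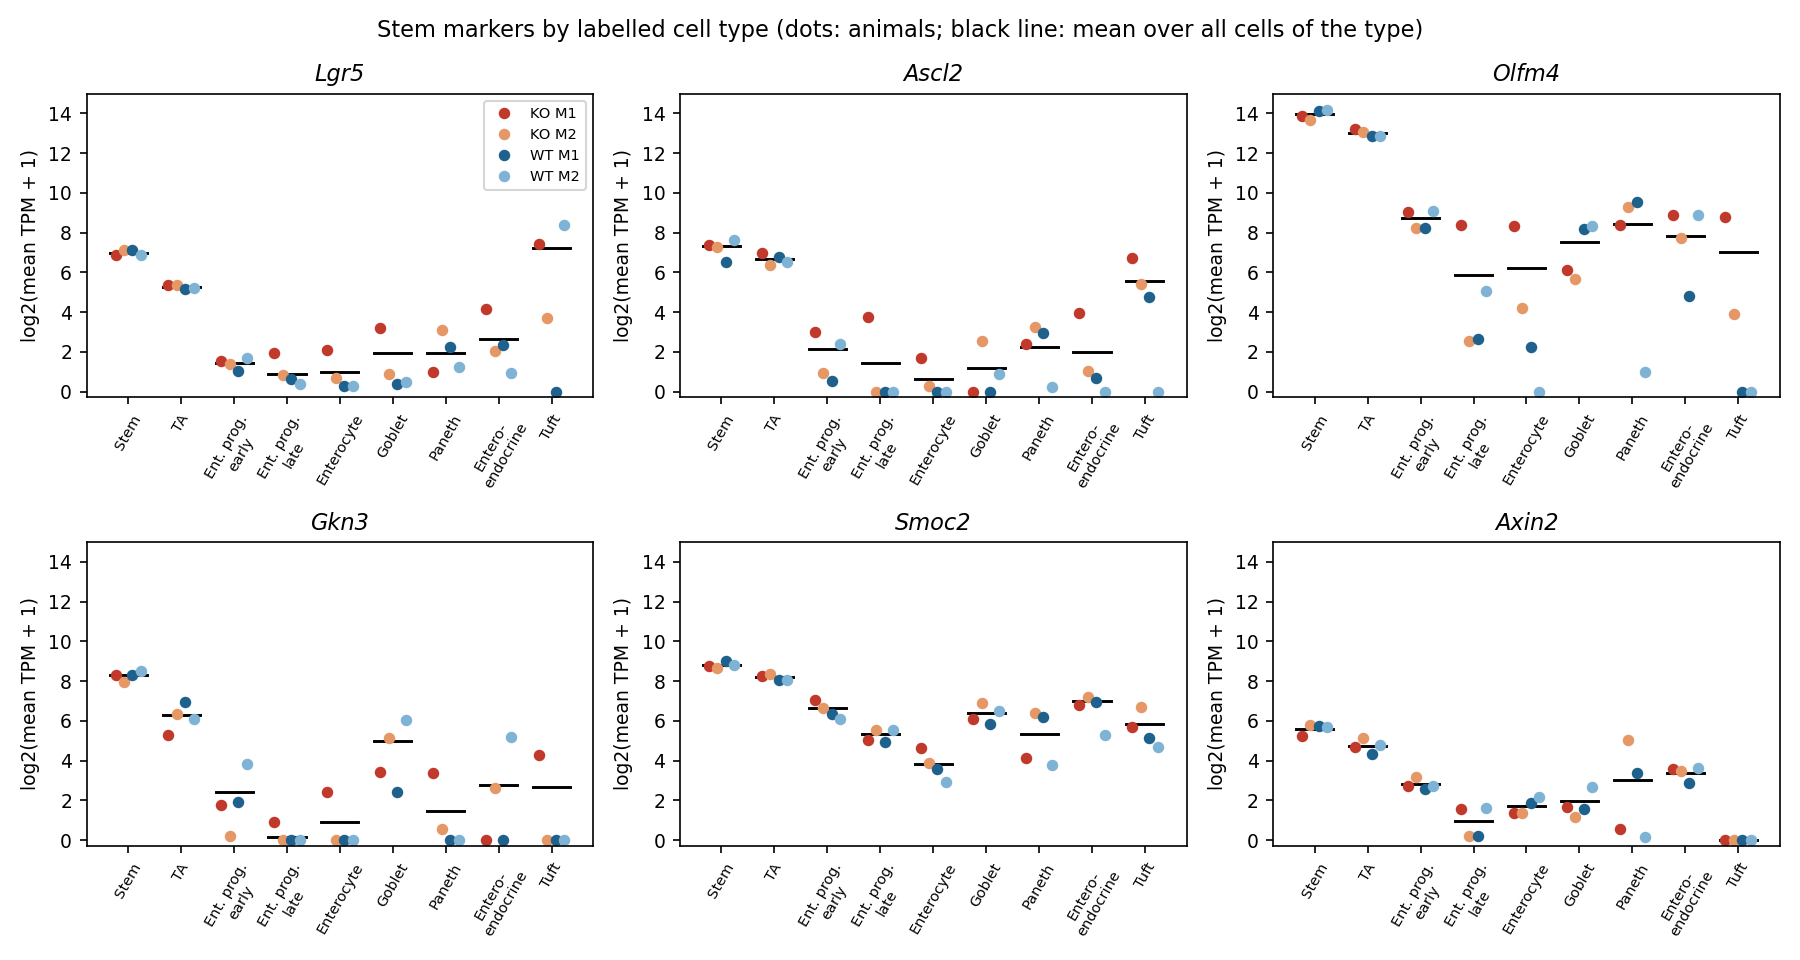
Mean level of each stem marker as log2(mean TPM + 1) (vertical axis) in each of the 9 labelled cell types (horizontal axis). Dots are the animals and the black line is the mean over all cells of the type; Stem and TA cells stand above the other types for 5 of the markers, while Lgr5 is also high in Tuft cells, whose dots stand for 7 cells in all.

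Promoter sequence (250 bases before to 50 after the start, RefSeq, GRCm38.p6) was at hand for 4 of the 6 markers. Axin2 and Olfm4 are shown because they are the textbook Wnt target of the set and its most abundant transcript. The first lies at chr11:108920099-108920398 and the second at chr14:80000052-80000351, both on the plus strand, and capitals mark the motif TATAA 32 bases before the Olfm4 start.
Axin2: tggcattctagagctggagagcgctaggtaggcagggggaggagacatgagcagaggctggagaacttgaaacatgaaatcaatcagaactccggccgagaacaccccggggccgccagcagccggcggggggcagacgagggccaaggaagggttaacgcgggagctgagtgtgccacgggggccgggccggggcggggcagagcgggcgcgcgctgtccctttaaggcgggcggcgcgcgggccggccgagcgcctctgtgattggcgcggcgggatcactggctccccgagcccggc
Olfm4: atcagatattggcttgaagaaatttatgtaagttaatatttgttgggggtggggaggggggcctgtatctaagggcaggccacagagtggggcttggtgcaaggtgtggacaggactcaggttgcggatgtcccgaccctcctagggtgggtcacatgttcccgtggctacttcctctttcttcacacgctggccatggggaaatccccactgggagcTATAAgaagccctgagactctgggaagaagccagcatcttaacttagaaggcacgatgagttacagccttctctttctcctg
The core of the TCF/LEF motif, CTTTGAT or CTTTGTT, searched on both strands where the letter strings cannot overlap, was found in 0 of the 4 windows and in 9.33% of 32851 promoters. TATAA on the plus strand, 40 to 20 bases before the start, was found in Olfm4 and not in Ascl2, Gkn3 or Axin2, against 3.31% of all promoters. That search was added after the sequences had been seen. The windows ran from 42.7% G and C in Gkn3 to 70% in Axin2, against a median of 52.7% over all promoters.

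Set against TA cells, Stem cells differed mostly in what they lacked. Of 7219 genes compared, 0.319% (23 genes) were at least 2-fold higher in Stem cells in each of the 4 animals and 2.19% at least 2-fold lower. Any difference in 1 direction in all 4 animals was counted for 807 genes higher (11.2%) and 1550 lower (21.5%), and the median difference was -0.10. These are descriptions with no test, since the labels may rest on the genes of the same cells.

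The 12 genes with the firmest excess in Stem cells, ranked by the smallest difference among the 4 animals, included secreted ribonucleases, transporters and signalling proteins. Rnase1, a secreted ribonuclease, had 28.2 and 61.4 TPM in KO and 64.6 and 87.1 TPM in WT Stem cells, against 4.17 and 11.95 TPM in KO and 5.71 and 6.12 TPM in WT TA cells (2.92 ± 0.64). Rnase4, of the same ribonuclease family, lay between 173.8 and 184.3 TPM in the Stem cells of the 4 animals (SD 4.99 TPM), and between 50.9 and 80.8 TPM in their TA cells. Both ribonucleases were higher in Stem cells of every animal without overlap. Slc1a2, a glutamate transporter, averaged 30.2 ± 2.04 TPM in Stem cells and 6.56 ± 2.92 TPM in TA cells. Abcc5, an exporter of cyclic nucleotides, averaged 15.6 ± 1.20 TPM in Stem and 3.56 ± 0.86 TPM in TA cells. Acot1, an acyl-CoA thioesterase, averaged 100.8 ± 15.4 TPM in Stem and 34.7 ± 9.85 TPM in TA cells. The phosphoinositide 3-kinase adaptor gene Pik3ap1 (2.06), the cytokine gene Ctf1 (1.88) and Ccdc3 (2.27), Tpd52l1 (2.17) and Parm1 (1.76) were also among the 12, with Gkn3 and Lgr5.

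Some genes put Stem cells above all 8 other types at once. Tnfrsf19, a Wnt-induced receptor also called Troy, averaged 26.4 TPM over Stem cells and 5.71 TPM over TA cells, the next type. Its Stem levels spread widely, with 28.8 and 10.9 TPM in KO and 15.3 and 41.4 TPM in WT. Cyp2e1, an ethanol-oxidising cytochrome P450, averaged 71.5 TPM over Stem and 18.2 TPM over TA cells, with WT M1 lowest at 17.6 TPM. Igfbp4, which binds insulin-like growth factors, averaged 255.9 TPM over Stem and 92.02 TPM over TA cells, and Soat1, which esterifies cholesterol, 132.8 and 51.5 TPM. Cbs, an enzyme of cysteine synthesis, Slc1a2, Ccdc3 and Gkn3 also had TA as the next type, while Pld6 was followed by Enteroendocrine cells, the hormone-secreting type, and Pik3ap1 by Tuft cells.

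Genes listed as stem-associated beyond the 6 markers followed the same order. Of 28 such genes 26 passed the filter on low values. Of these, 22 were higher in Stem cells of all 4 animals and 0 lower, against 11.2% and 21.5% of all genes. Their median was 0.90 against -0.10 over all genes. Rgmb, a BMP co-receptor, averaged 112.4 ± 30.99 TPM in Stem cells and 45.95 ± 16.5 TPM in TA cells, and with Igfbp4 and Soat1 it was 2-fold higher in every animal. Slc12a2, an ion cotransporter of crypt cells, averaged 145.3 ± 17.9 TPM in Stem and 72.2 ± 7.52 TPM in TA cells. Lrig1, a negative regulator of EGF receptors, the hyaluronan receptor Cd44, the water channel Aqp4 and Cd24a were not higher in all 4 animals. Genes named for a reserve stem cell state were scarce, with 2 of 6 past the filter: Lrig1 and Hopx. Bmi1 averaged 2.17 TPM in Stem cells and 2.56 TPM in TA cells.

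Of 30 Wnt pathway genes 16 passed the filter, and of these 8 were higher and 1 lower in Stem cells of all 4 animals, with a median of 0.58. Among all genes compared, 11.2% were higher and 21.5% lower in all 4 animals. The 8 were Lgr5, Axin2, Rnf43 and Znrf3, ubiquitin ligases that remove Frizzled receptors, and the targets Sp5, Myc, Sox9 and Ephb3. All of these but Myc are also stem markers or members of the list of other stem genes, so this count is not separate from theirs. The targets Ascl2 and Cd44 of the same list were not higher in all 4. Rnf43 averaged 54.7 ± 15.6 TPM in Stem and 28.05 ± 4.82 TPM in TA cells. The receptor gene Fzd5 was lower in Stem cells of all 4 animals (10.8 ± 3.18 against 21.8 ± 5.37 TPM), and Ctnnb1, which encodes beta-catenin, did not separate the types (131.5 ± 22.3 against 131.8 ± 22.7 TPM). Of 6 Notch pathway genes, the receptor Notch1 was higher in all 4 animals (0.36) and the feedback inhibitor Nrarp at least 2-fold lower (4.12 ± 1.82 TPM in Stem against 14.5 ± 3.13 TPM in TA cells). Of 7 BMP genes, Rgmb was higher and the target Id3 lower (-0.54). Of 4 EGF receptor genes, Erbb2 was higher in all 4 animals (0.44). The Notch, BMP and EGF counts, at most 1 gene each way, cannot be told from the shares among all genes.

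The cell cycle genes split by phase. All 25 mitosis genes were at least 2-fold lower in Stem than in TA cells in every animal, with a median of -3.34. Ccnb1, the mitotic cyclin, had 3.95 and 2.65 TPM in KO Stem cells and 0 and 9.17 TPM in WT Stem cells, against 195.5 and 196.7 TPM in KO and 121.02 and 152.1 TPM in WT TA cells. Aurkb, a kinase of chromosome segregation, averaged 3.72 ± 1.04 TPM in Stem and 136.3 ± 23.97 TPM in TA cells. Nusap1, a spindle protein, averaged 0.37 ± 0.64 TPM in Stem and 61.3 ± 17.1 TPM in TA cells. For all 3 genes the Stem means of the animals lay far under their TA means. The widest gap was in the histone gene Hist1h2ao (27.9 ± 19.9 against 1322 ± 593 TPM), whose copies are near-identical, so its own level is uncertain. Of 23 measured DNA replication genes, by contrast, 13 were lower in all 4 animals, 0 higher and 1, the ribonucleotide reductase subunit Rrm2, at least 2-fold lower (25.3 ± 13.96 against 151.6 ± 24.2 TPM), with a median of -0.40. The replication clamp gene Pcna averaged 356.5 ± 71.1 TPM in Stem and 515 ± 63.9 TPM in TA cells (-0.54). Mcm2, of the replicative helicase, had the highest difference of the list (157.7 ± 37.4 TPM in Stem and 134.2 ± 15.2 TPM in TA cells). Of 9 genes for cyclins, their kinases, inhibitors and related regulators, 2 were higher and 4 lower in all 4 animals (median -0.33). Among all genes 11.2% were higher and 21.5% lower. Cdk6, the G1 kinase, was higher (66.01 ± 10.2 TPM in Stem against 42.7 ± 5.17 TPM in TA cells), as was Myc, also counted in the Wnt list. The cyclin kinase inhibitor Cdkn1a was 2-fold lower (1.66 ± 1.38 TPM in Stem against 10.2 ± 1.07 TPM in TA cells). The retinoblastoma relative Rbl1 (-1.07), the cyclin-dependent kinase gene Cdk2 (-0.49) and the D-type cyclin gene Ccnd3 (-0.47) were lower too.

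**Figure D2:**
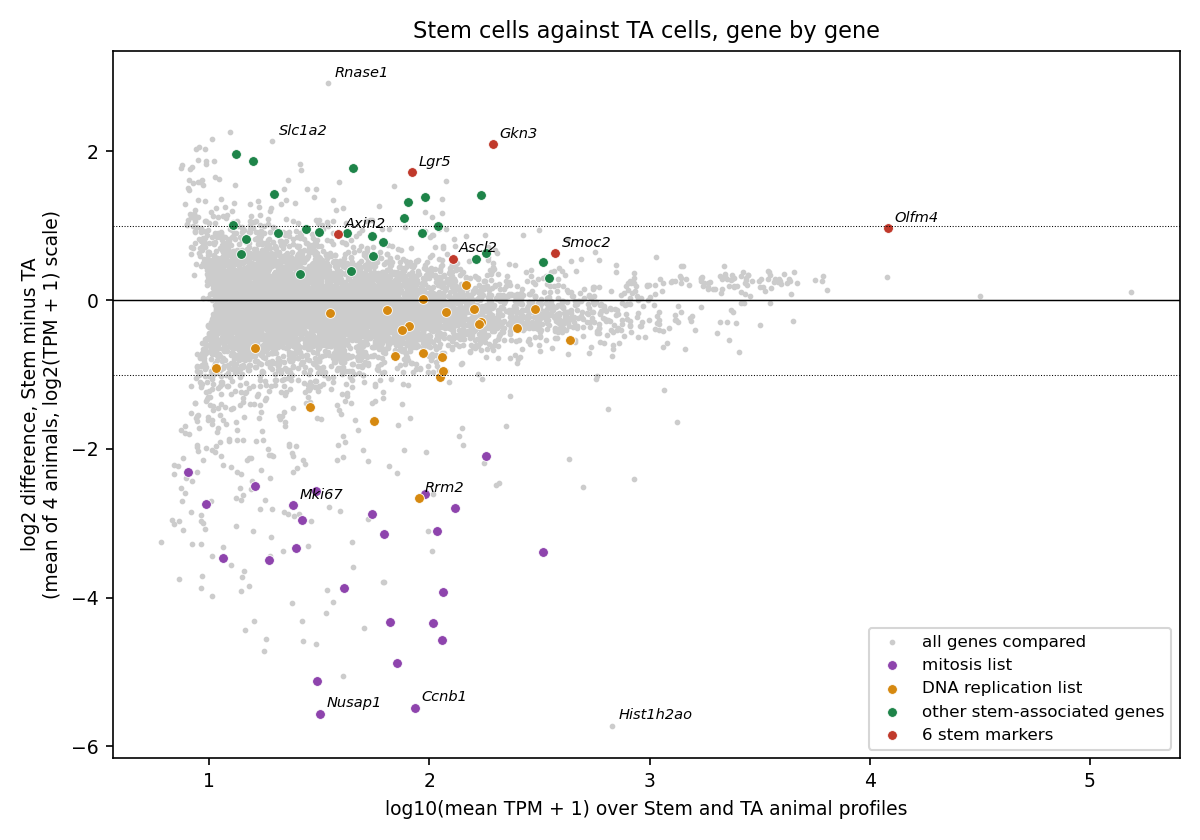
Difference between Stem and TA cells (vertical axis, log2 scale, mean of the 4 animals) against mean level (horizontal axis, log10(TPM + 1)) for 7219 genes in grey. The 25 mitosis genes (purple) all lie under the dotted line of a 2-fold decrease, the 23 replication genes (orange) mostly lie near 0 with Rrm2 far below, and the 6 markers (red) and 26 other stem genes (green) all lie above 0.

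Cell by cell, the same split appeared. The mitosis genes summed to a median of 194.4 TPM in Stem cells (0 to 3149, with the second highest cell at 1442) and 2627 TPM in TA cells. Of the 96 Stem cells, 1 lay above the TA median, while 94.3% of the TA cells lay above the Stem median. The replication genes summed to a median of 2006 TPM in Stem cells (96.0 to 6718) and 2986 TPM in TA cells, and 38 Stem cells lay above the TA median. Of those 38, 0 were above the TA median for mitosis, against 1 of all 96 Stem cells, so the 0 adds little. Enterocyte.prog.early cells, the next progenitor label, had the highest mitosis median (4609 TPM), and Enterocyte.prog.late cells were at 187.2 TPM.

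The count of lower genes was smaller against a subset of TA cells. With 74 TA cells left out whose mitosis sum exceeded that of any Stem cell (3149 TPM, in 1 cell far above the next), the one subset tried and chosen after the sums had been seen, 69 genes were 2-fold lower in Stem cells. The mitosis median was then -1.81, with 22 of the 25 genes lower in all 4 animals, and 21 of the 23 replication genes were lower in all 4 (median -0.66). The genes 2-fold higher in Stem cells numbered 24.

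**Figure D3:**
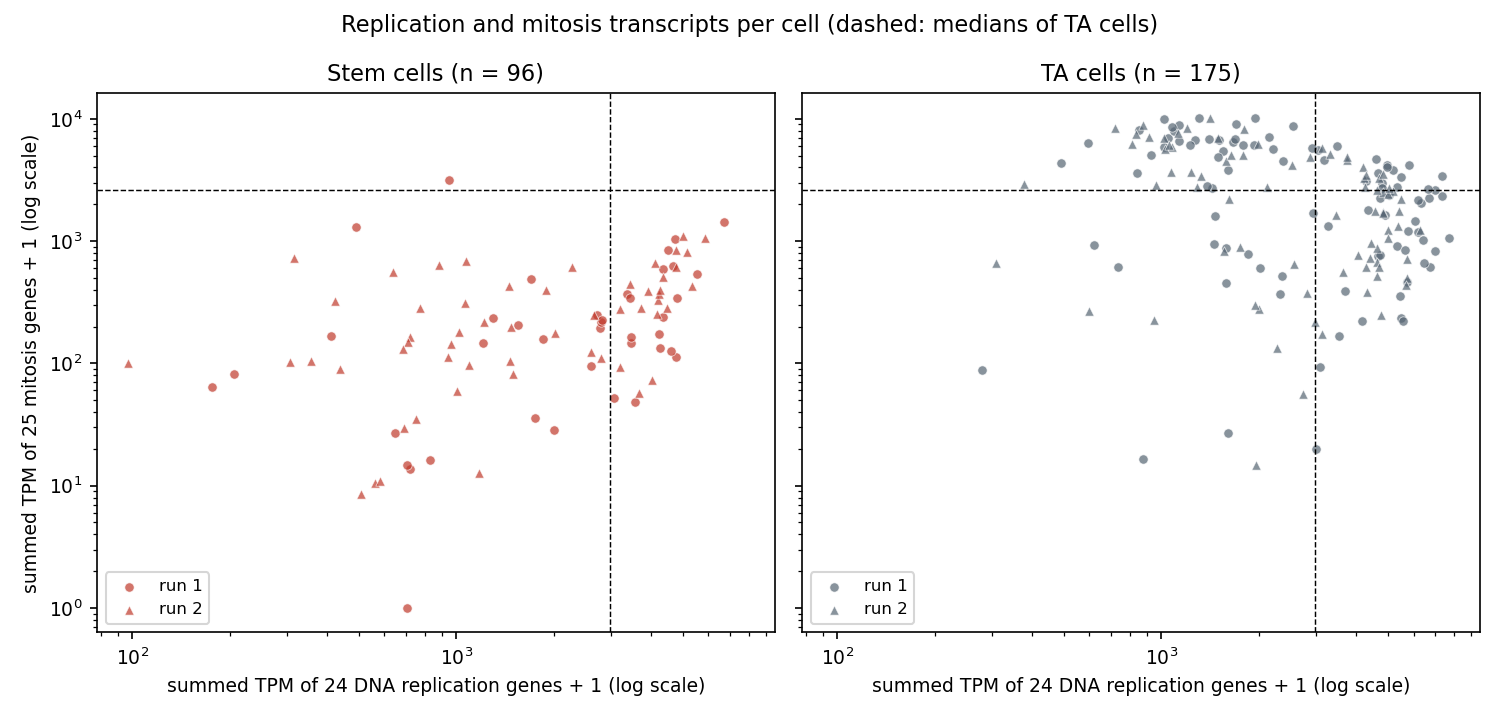
Summed TPM + 1 of 25 mitosis genes (vertical axis, log scale) against summed TPM + 1 of 24 replication genes (horizontal axis, log scale) in each of the 96 Stem cells and in the TA cells, by run; dashed lines are the TA medians. Stem cells stretch along the replication axis at low mitosis sums, 1 of them above the TA median for mitosis, whereas TA cells fill the upper part.

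The ribosomal, respiratory and autophagy lists had medians closer to 0. Of 80 ribosomal protein genes, 50 were higher in Stem cells of all 4 animals (median 0.24), and of 77 respiratory chain genes 48 were lower (median -0.26). Reads of ribosomal protein genes can be shared with their processed pseudogenes, which leaves single levels uncertain. Of 31 core autophagy genes, 4 were higher (Atg13, Atg14 and Atg10, which act in initiation and conjugation, and Map1lc3b, which encodes an LC3 protein) and 2 lower, with a median of 0.05. Those counts lie near or under the 11.2% higher and 21.5% lower among all genes. Atg13, a subunit of the initiating kinase complex, averaged 21.1 ± 4.19 TPM in Stem and 11.8 ± 1.39 TPM in TA cells. Of 5 measured immediate early genes, which respond to stress and to cell handling, Jun, Junb and Btg2 were higher in Stem cells in all 4 animals. Of all genes compared, 11.2% were. Fos, of the same list, had its lowest difference (-2.21) and was lower in Stem than in TA cells of every animal but WT M2. Markers of Enteroendocrine, Tuft and immune cells had 0 genes past the filter in Stem or TA cells, and the immune sum had a median of 0 TPM in Stem cells, with 67 of the 96 at 0. Of the markers of stroma and blood, 1 passed, the haemoglobin gene Hba-a1. Of 7 measured Paneth cell products, 4 were higher in Stem than in TA cells of all 4 animals (median 0.94, but -0.08 in run 1 and 1.06 in run 2). Of 4 goblet cell genes 1 was higher, and of 7 enterocyte genes 3 were higher and 1 lower.

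Stem cells varied among themselves in MHC class II, Paneth cell and replication genes and in Gkn3 more than in their Wnt genes. Variation was measured as the SD of log2(TPM + 1) over cells, centred within animal and run, above the trend with mean level. MHC class II molecules present peptides to CD4 T cells, and all 7 measured genes of that list lay above the trend, as did 19 of 22 replication genes, 7 of 7 Paneth cell genes and 4 of 4 goblet cell genes, against 3490 of 6764 genes overall. The median excess of the SD over the trend was 1.20 for class II, 0.80 for Paneth cell, 0.56 for replication, 0.35 for goblet and -0.74 for Wnt genes. H2-Ab1, a class II chain, had an SD of 3.61 where the trend was 1.53, and of 2.97 in TA cells. It was detected in 82.3% of Stem cells and ran from 133.3 to 1001 TPM between the quartiles. Gkn3 had an SD of 3.50 (trend 2.27, and an SD of 3.54 in TA cells). Lgr5 lay 0.25 and Axin2 0.74 below the trend, and 1 of 16 Wnt genes lay above it. Also among the 15 most variable genes were the class II genes Cd74, H2-Aa and H2-Eb1, the interferon-induced Ifitm3, the epithelial genes Prap1 and Phgr1, the tubulin regulator Stmn1, the helicase gene Mcm6 and the alpha-defensin gene Defa24. Mir703, Rpl26 and the pseudogenes Rpl34-ps1 and Oaz1-ps completed the 15, and their reads can be shared with near-identical copies.

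Correlations across Stem cells describe which transcripts went together, in cells that share libraries, runs and differences in depth. The 4 pairs of class II genes examined went closely together (Spearman rho 0.69 for H2-Aa with H2-Ab1 and 0.84 for H2-Ab1 with Cd74, n = 96). In TA cells these 2 pairs were at 0.88 and 0.90, so the tie was not particular to Stem cells. The summed stem markers were lower where replication was higher (-0.30, with -0.43 in run 1 and -0.35 in run 2), and replication went with mitosis (0.48). Olfm4, at a mean of 16224 of the 17321 TPM of the marker sum, gave -0.29 with replication. The summed other stem genes, which do not hold it, gave -0.43 (-0.50 in run 1 and -0.47 in run 2). In TA cells replication and mitosis were opposed (-0.39). Replication also went with the number of genes above 0 TPM in Stem cells (0.60), and the part of detection in these relations was not tested. The markers were weakly tied to each other: rho was 0.41 for Lgr5 with Smoc2, 0.35 for Lgr5 with Olfm4 and -0.02 for Lgr5 with Ascl2, which in TA cells was 0.40.

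The targeted gene was looked at first in the comparison of genotypes. Atg16l2 was listed at 0 in all 47 KO Stem cells, which allows a share of up to 6.38% of cells with a listed value (not of cells that express the gene), and was above 0 TPM in 3 of 20 WT M1 and 8 of 29 WT M2 Stem cells (22.4% of WT, exact binomial 95% interval 11.8 to 36.6%). Its WT means were 17.2 and 26.3 TPM. Atg16l1, which anchors the LC3 conjugation enzymes, had 7.53 and 29.1 TPM in KO and 20.4 and 22.3 TPM in WT Stem cells, and the genotypes overlapped (log2 difference -0.48, SE 0.58). Intervals and limits on shares cover counting error only and pool the cells of 2 animals.

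No gene passed the test between KO and WT Stem cells, Atg16l2 included. With Benjamini-Hochberg adjustment over 6764 genes, limma made 0 calls (0%), with a smallest adjusted p of 0.790 for the ribosomal protein gene Rps27, and 5.5% of genes had an unadjusted p under 0.05. Rps27 (-2.59, SE 0.46), named after its values were seen, differed by -6.63 in run 1 and 2.43 in run 2, so it falls outside the rule for named genes. These p-values rest on the spread between 2 animals per genotype, drawn toward the trend of that spread over all genes. With the trend included, the test had 11.6 degrees of freedom. Both KO animals lay above both WT animals for 18.2% of genes and below for 15.8%, the median difference was 0.03, and the differences of the 2 runs had the same sign in 50.4% of genes.

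Candidates that did not pass were named as the 8 higher and 8 lower genes of smallest p among those whose animals did not overlap between genotypes and whose runs had 1 sign, each with a limma adjusted p of 0.892. In the KO, the histone chaperone gene Asf1b had 36.3 and 48.0 TPM, against 12.8 and 10.1 TPM in WT (log2 difference 1.79, SE 0.42). Cdc45, of the replicative helicase, had 37.3 and 50.7 TPM in KO and 17.1 and 12.01 TPM in WT (1.54, SE 0.41). Both were detected in a minority of Stem cells, Asf1b in 9 and 6 cells of the KO animals and 2 and 4 of the WT animals. Dynlt1a, a dynein light chain with near-identical copies, differed by 2.06 (SE 0.41) and Dcbld1 by 1.98 (SE 0.44). Rbm43 differed by 2.95 (SE 0.74) and Gstm6, a glutathione transferase, by 1.57 (SE 0.43). The other two higher genes, Defa22 (1.52, SE 0.31) and Itln1 (1.86, SE 0.49), are described with the Paneth cell products. Among the lower genes, Gpr30, a membrane receptor that responds to estrogen, had 5.91 and 12.8 TPM in KO and 37.98 and 48.0 TPM in WT (-2.16, SE 0.48). Atp6v0c, a subunit of the proton pump of lysosomes, had 82.2 and 80.8 TPM in KO and 153.02 and 203.8 TPM in WT (-1.11, SE 0.28). The ribonuclease gene Ang (-1.28), the pro-apoptotic gene Bad (-1.52), Hs1bp3 (-1.50) and the ribosomal protein genes Rpl32, Rpl41 and Rpl36 (-0.65 to -0.57) completed the 8. Those 3 rested largely on run 1: Rpl41 had 4816 and 2543 TPM in KO and 7095 and 8092 TPM in WT run 1 cells, against 3419 and 3381 TPM in KO and 3305 and 3594 TPM in WT run 2 cells, where the genotypes overlapped. In run 2 Rpl41, Rpl36 and Rpl32 differed by -0.020, -0.13 and -0.20, and without the run 1 cells of KO M2 by -0.53, -0.57 and -0.49.

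**Figure D4:**
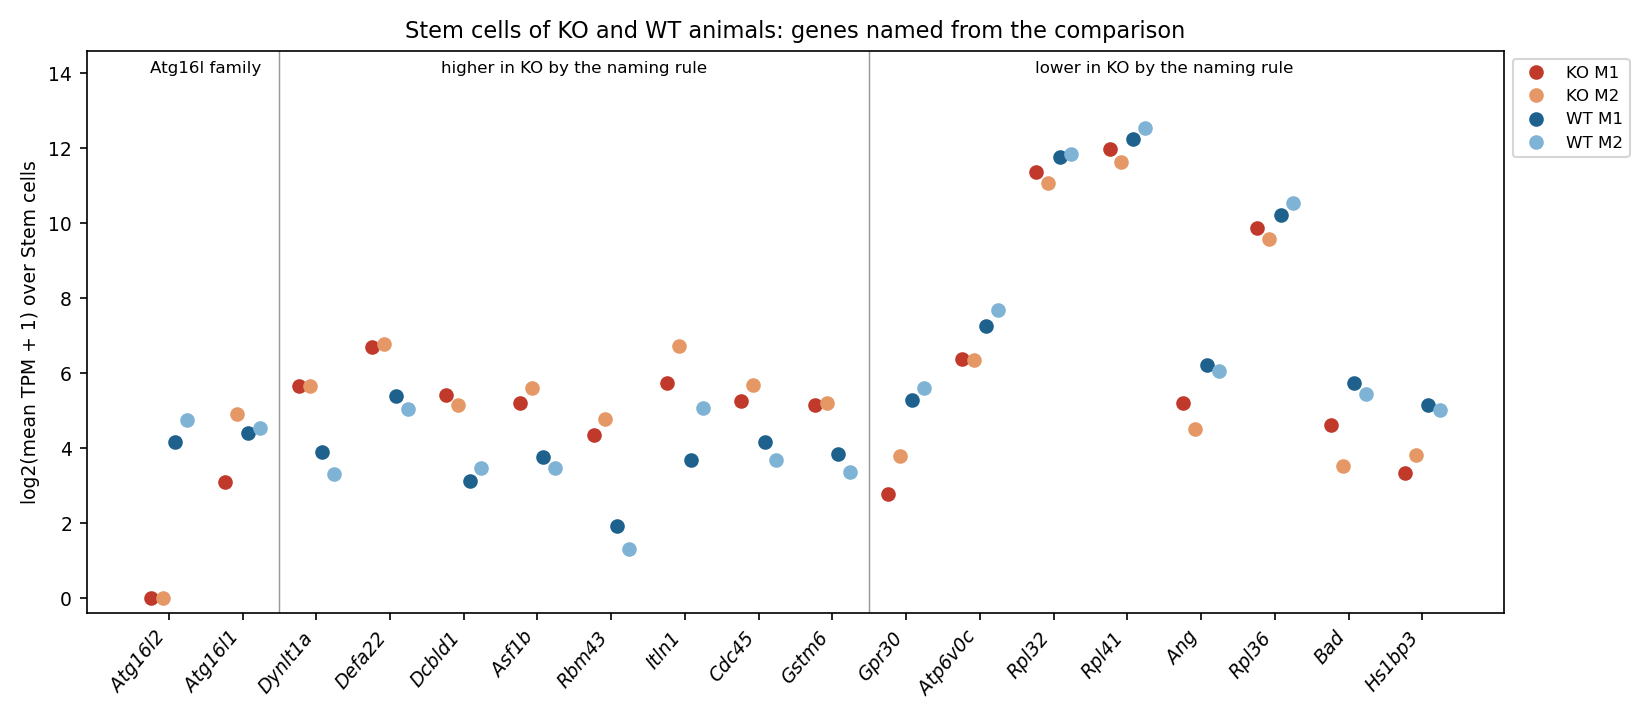
Level in Stem cells, as log2(mean TPM + 1) (vertical axis), of Atg16l2, Atg16l1 and the 16 genes named by the rule (horizontal axis). Each dot is 1 of the 4 animals; Atg16l2 is at 0 in both KO animals, Atg16l1 overlaps, and the 16 genes separate KO from WT because the rule that named them asked for it.

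None of the 6 stem markers passed the test between genotypes (limma, 0 called). Of the 6, 2 were higher and 4 lower in KO (median -0.20). Of the lower ones 3 had no overlap between KO and WT animals, against 15.8% of all genes. In run 1 alone 4 were higher and 2 lower (median 0.094), and in run 2 alone 3 and 3 (median -0.047). Olfm4 differed by -0.35 (SE 0.10, limma adjusted p = 0.892). In run 1 its KO means were 19151 and 18710 TPM, against 18521 and 18455 TPM in WT. In run 2 they were 11934 and 11396 TPM in KO, against 16799 and 18331 TPM in WT, a difference of -0.59 that limma called in run 2 cells alone (adjusted p = 0.0133). Olfm4 was therefore lower in KO Stem cells of 1 of the 2 runs, and the difference between runs was not tested. The share of Stem cells among all cells was 16.9 and 10.6% in KO and 11.9 and 17.4% in WT animals (exact permutation p = 0.667, where 0.3333 is the smallest that 4 animals allow).

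Several gene groups leaned 1 way in KO Stem cells, each with 0 members past the test. Of 22 DNA replication genes 18 were higher, 6 of them (against 18.2% of all genes) with both KO animals above both WT animals (median 0.26, with 0.25 in run 1 and 0.24 in run 2). Per cell, however, the replication sum had medians of 3440 and 1055 TPM in KO and 1211 and 1850 TPM in WT animals, so the KO animals lay at either end. Of 9 measured mitosis genes 7 were higher (median 0.43, but -0.13 in run 1 and 0.93 in run 2). Of 80 ribosomal protein genes 72 were lower, 51 of them without overlap between genotypes, against 15.8% of all genes (median -0.22), and of 76 respiratory chain genes 63 were lower (-0.27). Those medians were -0.72 and -0.85 in run 1 and 0.00 and 0.06 in run 2, and -0.15 and -0.18 without the run 1 cells of KO M2. With quantile normalization 54 of the 80 ribosomal protein genes were lower (median -0.068). In the 4 cells the ribosomal protein sum had a median of 123647 TPM, against 233827 to 258485 TPM in the other run 1 animals. Without the same 4 cells, 14 of the 22 replication genes were higher in KO (median 0.17). The 26 other stem genes split 13 higher and 13 lower, the 16 Wnt genes 8 and 8, and the 30 core autophagy genes 15 and 15, against 3556 higher and 3208 lower over all genes.

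Paneth cell products had the list median furthest from 0, with 0 of 7 past the test. All 7 measured genes were higher on average in KO Stem cells, 5 of them without overlap between genotypes, against 18.2% of all genes, with a median of 0.998 (0.12 in run 1 and 1.47 in run 2). Defa22, an alpha-defensin, had 102.4 and 108.6 TPM in KO and 40.9 and 32.04 TPM in WT, and the lectin gene Itln1 52.3 and 106.1 TPM in KO and 11.8 and 32.7 TPM in WT. The summed level per cell pointed the other way, with medians of 91.4 and 162.1 TPM in KO and of 212.1 TPM in WT M1, with WT M2 just under that. The highest single cells had 9271 and 13432 TPM in the KO animals, against 2395 and 4780 TPM in the WT animals. Low levels of Paneth transcripts were found in other types too: Lyz1, lysozyme, was above 0 TPM in 40.6% of Stem, 38.3% of TA and 39.7% of Enterocyte cells, and its mean was 126.7 TPM over Stem cells, against 32669 TPM in Paneth cells. The shares were 32.3% of Stem, 18.9% of TA and 31.03% of Enterocyte cells for Defa17, 62.5%, 49.1% and 48.3% for Defa24, and 10.4%, 5.14% and 5.17% for Defa26. The part of free RNA in them was not tested, and alpha-defensins are near-identical copies whose single levels are uncertain.

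Whether KO acted differently in Stem than in TA cells was tested on the within-animal differences between the types. Over 6821 genes limma made 0 calls (0%), with a smallest adjusted p of 0.204 and a median of -0.03, and 5.0% of genes had an unadjusted p under 0.05. Both KO animals lay above both WT animals in 15.1% of genes and below in 18.1%. The smallest p-values belonged to Itln1 (2.99, SE 0.50) and the metallothionein gene Mt2 (3.08, SE 0.53, limma adjusted p = 0.204 for both). In TA cells Itln1 had 21.8 and 38.1 TPM in KO and 66.3 and 62.2 TPM in WT. Mt2 had 25.5 and 41.1 TPM in KO and 128.1 and 91.8 TPM in WT TA cells. Both were thus lower in KO TA cells, which enters these differences. In Stem cells Mt2 had 21.8 and 124.4 TPM in KO and 24.9 and 15.5 TPM in WT, so the genotypes overlapped there. It was detected in 8 and 4 KO and 5 and 4 WT Stem cells. In KO M2 the highest single cells had 1667 TPM in run 2 and 516 TPM in run 1. Asf1b (2.06), Dynlt1a (2.45) and Defa22 (1.85) followed. Of 22 replication genes 12 had both KO animals above both WT animals and 0 the reverse (median 0.37, with 0.22 in run 1 and 0.52 in run 2).

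In the other direction stood MHC class II. H2-Ab1 had 953 and 441 TPM in KO and 660 and 474 TPM in WT Stem cells, so the genotypes overlapped there. In TA cells it had 1407 and 745 TPM in KO and 595.98 and 293.9 TPM in WT. The difference between the KO effects in Stem and TA cells was -1.08 (SE 0.22, limma adjusted p = 0.362), and Cd74 and H2-Aa differed by -0.93 and -1.38 with the same adjusted p. Of the 7 class II genes 5 lay lower and 2 higher, H2-DMb1 (0.41) and Ciita (0.58), with a median of -0.93. Without overlap between KO and WT animals 4 lay lower, against 18.1% of all genes. Runs were mixed unequally between the types of 1 animal, since 4 of the 18 Stem cells and 29 of the 43 TA cells of KO M2 came from run 1. The class II median was -0.20 in run 1 alone, -0.16 in run 2 alone, -0.33 without the run 1 cells of KO M2 and -0.61 when the 2 runs were weighted equally. H2-Ab1, Cd74 and H2-Aa differed by -0.65, -0.47 and -0.89 without those cells (limma adjusted p = 0.988 each). The replication median was 0.39 without them. Within Stem cells alone all 7 were higher in KO (median 0.35), but 1.16 in run 1 and -0.04 in run 2. Without the run 1 cells of KO M2, 2 of the 7 were higher (median -0.10). Fos, the immediate early transcription factor, had 0 and 0.302 TPM in KO and 3.27 and 12.2 TPM in WT Stem cells and was detected in 1 KO and 9 WT Stem cells. In TA cells it had 9.56 and 43.8 TPM in KO and 6.28 and 8.90 TPM in WT, the other order. KO M2 had 59.26 TPM of Fos in run 1 TA cells and 11.71 TPM without them, still above both WT means. Within run 1, KO M1 TA cells had 2.97 TPM, under WT M1 (10.77 TPM) and WT M2 (15.97 TPM), so the genotypes overlapped there. In run 2 TA cells Fos had 14.88 and 11.71 TPM in KO and 0 and 3.51 TPM in WT. Olfm4 completed the list at -0.62 (SE 0.14, limma adjusted p = 0.426).

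**Figure D5:**
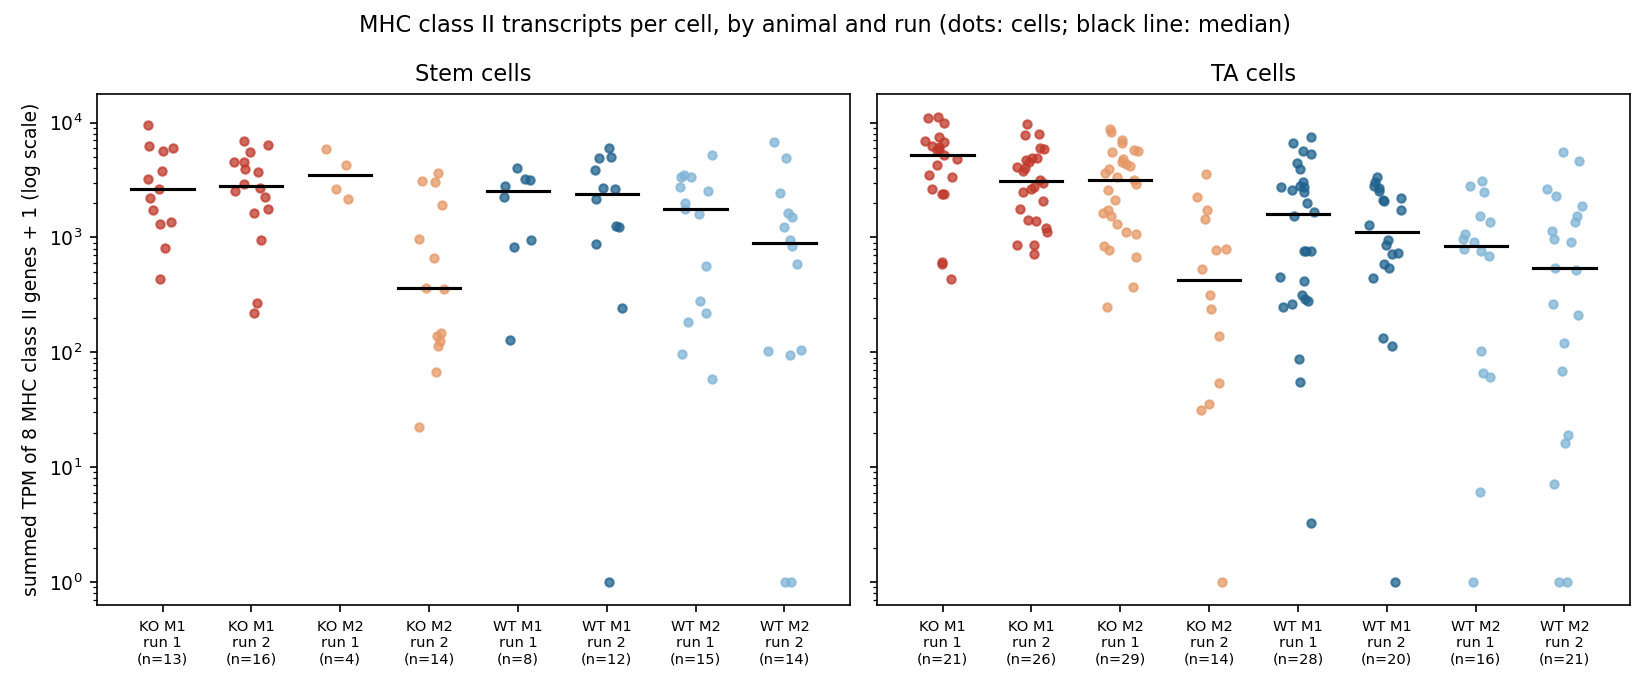
Summed TPM + 1 of 8 MHC class II genes per cell (vertical axis, log scale) for each animal and run (horizontal axis), in Stem cells on the left and TA cells on the right; dots are cells and black lines medians. Stem medians of run 1 lie at 2644 and 3466 TPM in KO and 2549 and 1756 TPM in WT, and in run 2 at 2813 and 358.9 TPM in KO and 2409 and 898 TPM in WT, so the order of the animals differs between runs.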

How the data were processed

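Single epithelial cells of mouse intestine were profiled by SMART-Seq2 per the labels' protocols, which mention a 10X Genomics preparation as well. The authors deposited TPM values for 23420 genes in 677 cells, and the submitters' processing notes name Bowtie, TopHat and RSEM. Versions and genome build are not given in the sources used here. TPM keeps no depth. No cell was removed and no doublet caller run. All columns were matched to labels.

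TPM was averaged per animal and type and transformed as log2(TPM + 1). For Stem against TA, a mean of 10 TPM in either type was required. For the genotypes, genes needed a mean of 10 TPM and a value above 0 in 10% of the cells. The test was limma 3.58.1 (R 4.3.3, eBayes with trend, two-sided, Benjamini-Hochberg over all kept genes, threshold 0.05). The procedure was also run on simulated animals, drawn from 1 pooled set of Stem cells with changes put into some genes. Those hold no spread between animals or runs beyond the draw of cells, so they cannot give the error rates of these data. Other steps used Python 3.11.15. Stem and TA cells were compared without a test.

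Named genes were, per direction, the 12 with the largest smallest difference from TA cells over the 4 animals, the 10 furthest above all other types, the 8 (genotype) or 5 (difference between types) with the smallest p among genes whose animals did not overlap and whose runs had 1 sign, and the 15 most variable; Gm and Rik symbols were not ranked. The trend of the SD was refitted on log2(SD) after a first fit had been seen. Members, lists and tests were chosen with earlier results of these data known. The labels do not state that replicate numbers pair animals, so the main fit had no block. Deviations of KO M1 and WT M1 gave r = -0.0027 over 6764 genes. These genes are not independent and the r is a single value, so it cannot decide whether animals were paired.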

Additional observations from a re-analysis of the deposited data

How the results depend on the processing

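The limits are the 2 animals per genotype, the unknown depth and the 4 run 1 Stem cells of KO M2. Genes called between KO and WT Stem cells (0 in the comparison reported) numbered 1 in run 2 cells alone, 6 with the replicate block and 0 to 14 when 1 animal was left out (14 without KO M1, 2 without KO M2, 0 without either WT animal). The other alternatives each called 0. For the difference between Stem and TA cells (0) the counts were 3 with a filter of 50 TPM, 10 with the replicate block and 0 to 40 with 1 animal left out (40 without WT M2, 18 without WT M1, 1 without KO M1, 0 without KO M2). In fits without 1 animal the lone animal is assumed to vary like the others. The labels do not state that replicate numbers pair animals, so whether the block is the better fit cannot be told. Genes 2-fold higher in Stem than in TA cells (23) numbered 8 with a pseudocount of 10, 38 without the filter, 9 at 50 TPM, 12 in run 2 and 32 to 40 with 1 animal left out. Those 2-fold lower (2.19% of genes compared) came to 1.34% with a pseudocount of 10, 2.25% at 50 TPM (62 of 2759 genes), 4.09% with log values averaged over cells, 5.28% with medians over cells, 0.956% without TA cells of high mitosis sum (added after the data were seen) and 2.45 to 2.84% with 1 animal left out, where 3 animals had to meet the rule in place of 4. The difference in the share of Stem cells, -0.91 points, was 1.92 in run 2. Of 491 values for 23 genes named between genotypes, 14 changed sign, all for markers or Atg16l1, at adjusted p of 0.91 or more: Lgr5 (0.02) was -0.10 without KO M2, -0.094 without WT M2, -0.021 rescaled without ribosomal protein genes and -0.20 in run 2; Ascl2 (0.25) was -0.30 without WT M1 (0.79 without WT M2) and -0.15 with log values averaged; Axin2 (-0.20) was 0.074 without KO M1 (-0.47 without KO M2) and 0.13 in run 2; Atg16l1 was 0.43 without KO M1 (-1.39 without KO M2), 0.16 with log values averaged and 0.060 in run 2; Olfm4 was 0.034 and Smoc2 0.15 in run 1, and Gkn3 (-0.28) was 0.11 in run 2. The cause was not tested. Past the threshold came Dynlt1a, Itln1 and Gpr30 with the block, Rpl32 and Rpl41 without KO M1, and Olfm4 in run 2. Of 576 values for 28 genes named between Stem and TA cells, 484 moved by less than 1 SD and 92 by more, among them 6 that came to 0 (medians over cells), and none took the opposite sign. The 10 genes named for the difference between types kept their sign under every alternative run for them. Their naming rule had fixed it for fits without 1 animal and within 1 run. It asked for animals without overlap between genotypes and for 1 sign in both runs. Genes named between genotypes, other than the markers and Atg16l1, met the same rule. Genes ranked against TA cells had to be 2-fold apart in 1 direction in all 4 animals. Signs kept in fits so fixed are no added support.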
